A study of Mus musculus with 11 samples.

Results

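Tesc, Plet1, Msc and C1qtnf3 are 4 of the 19057 genes with a probe on the arrays, and they are read by 7 of 45281 probes. They were chosen because every PyMT/SIRT6 array lay above the PyMT mean and because none lies near Sirt6, so their difference between the genotypes is given as a description without a test. The PyMT/SIRT6 tumours (n = 5) came from females that carry the polyoma middle T oncogene (PyMT) together with the Sirt6BAC allele, which comes from mice that overexpress functional SIRT6. The PyMT tumours (n = 6) came from females with the oncogene and no Sirt6BAC allele. All tumours arose spontaneously in the mammary gland, were taken at 12 weeks of age and were frozen, and their total RNA was read on Illumina WG-6 v2.0 mouse expression arrays, 1 array per tumour. The oncogene's promoter and the strain background are not stated in the labels, nor whether every tumour had its own mouse, and all p-values therefore rest on the spread among these tumours, which may be technical in part.

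SIRT6 is an NAD-dependent deacylase of chromatin that restrains the transcription of its target genes. The 4 genes belong to different families. Tesc encodes tescalcin, an EF-hand calcium-binding protein homologous to calcineurin B that binds the sodium-proton exchanger NHE1. Plet1 encodes a surface glycoprotein known as a marker of epithelial progenitors in the mouse placenta, thymus and hair follicle. Msc encodes musculin, a basic helix-loop-helix repressor that binds E-box sequences and is known from muscle precursors. C1qtnf3 encodes a secreted protein with a collagen-like stretch and a globular C1q domain, known from cartilage and fat.

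The bases before the start sites are shown because the genes were grouped by a shared direction, and their start regions can be compared in them. RefSeq windows of assembly GRCm38.p6 were matched for 3 of the 4 members. Each holds the 250 bases before the start site on the plus strand, 5′ to 3′: chr5:118027493-118027742 for Tesc, chr9:50494275-50494524 for Plet1 and chr15:10952082-10952331 for C1qtnf3. Capitals mark matches on either strand to any of 6 short motifs. Among them are the E-box forms CAGCTG and CACGTG, the TATA box sequence TATAAA and a GC box.
Tesc: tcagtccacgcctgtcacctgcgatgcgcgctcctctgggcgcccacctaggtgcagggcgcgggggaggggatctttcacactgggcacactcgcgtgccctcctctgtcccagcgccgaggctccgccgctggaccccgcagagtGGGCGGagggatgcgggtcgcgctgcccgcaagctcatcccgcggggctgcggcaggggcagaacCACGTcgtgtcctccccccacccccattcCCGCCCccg
Plet1: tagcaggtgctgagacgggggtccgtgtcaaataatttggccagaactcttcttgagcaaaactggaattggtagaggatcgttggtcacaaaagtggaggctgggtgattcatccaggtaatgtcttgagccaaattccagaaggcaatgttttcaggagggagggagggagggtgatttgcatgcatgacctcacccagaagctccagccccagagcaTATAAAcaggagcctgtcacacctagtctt
C1qtnf3: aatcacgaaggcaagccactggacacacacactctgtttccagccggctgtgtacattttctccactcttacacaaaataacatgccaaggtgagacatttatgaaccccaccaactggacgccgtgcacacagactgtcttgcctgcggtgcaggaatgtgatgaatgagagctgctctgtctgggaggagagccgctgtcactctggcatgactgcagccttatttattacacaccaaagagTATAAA
The Tesc window was the most CpG-rich, with 26 CpG and 73.2% G and C. The windows of Plet1 and C1qtnf3 held 3 and 6 CpG, against a median of 6 over 32851 windows of the same length. GGGCGG, found in 32.7% of all windows, matched at positions 148 and 242 of the Tesc window only. ACGTG, found in 16.6% of windows, matched at position 213 of the Tesc window. TATAAA, found in 12.4% of windows, matched at position 221 of the Plet1 window and position 245 of the C1qtnf3 window. These matches begin at −30 and −6 bases from the start site, so their places differ. Whether either works as a TATA box was not tested. The E-box forms CAGCTG (13% of windows) and CACGTG (6.02%), which contains ACGTG, had no match in these windows. Other E-box forms were not searched, so a lack of E-boxes is not shown. The AP-1 motif TGACTCA (4.46%) had no match either, and no motif of the 6 matched in all 3 windows.

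The labels were checked first on Sirt6 and on markers of the tissue. Sirt6 was higher in PyMT/SIRT6 tumours on each of its 3 probes without overlap; on the brightest, ILMN_2684909, the log2 intensity ran from 8.19 to 8.64 in PyMT/SIRT6 arrays and from 7.64 to 7.88 in PyMT arrays (exact two-sided permutation p = 0.002165, the smallest that 462 splits can give, n = 5 and 6). The luminal keratin Krt8 was bright in every tumour (12.29 to 12.95 in PyMT/SIRT6, 12.23 to 13.40 in PyMT), whereas the probe of the epithelial adhesion gene Epcam was dim (7.15 to 7.33 in PyMT/SIRT6, 7.16 to 7.35 in PyMT), with a mean over all arrays below the limit for tested features. Skeletal muscle markers set 4 arrays apart: PyMT/SIRT6 replicates 1, 4 and 5 had list means of 10.06, 10.77 and 11.56 and PyMT replicate 5 had 11.86, while the rest ran from 7.43 to 7.75 in PyMT/SIRT6 and from 7.41 to 8.49 in PyMT. In these bulk samples fewer cells of a type and less RNA per cell cannot be told apart. The deposited intensities were already brought to common quantiles and show no background subtraction, with a median of 157.5 to 157.57 on every array (7.30 on the log2 scale), so a dim probe understates a change in RNA.

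Tesc, the calcium-binding protein, is read by 1 probe, ILMN_2748222. Its log2 intensity was 8.52, 8.61, 8.30, 8.43 and 8.10 in PyMT/SIRT6 replicates 1 to 5, against a lowest value of 7.46, a median of 7.87 and a highest of 7.90 in the 6 PyMT arrays. The genotypes did not overlap: the lowest PyMT/SIRT6 array lay 0.20 above the highest PyMT array, the widest gap among the members. PyMT arrays other than replicate 3, the lowest, lay close together, between 7.82 and 7.90. The mean was 8.39 ± 0.20 (SD, n = 5) in PyMT/SIRT6 and 7.80 ± 0.17 (SD, n = 6) in PyMT tumours, a log2 difference of 0.59 ± 0.11 (SE of the limma fit) or 1.51-fold. On the intensity scale these are geometric means of 336.4 and 223.1.

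Plet1, the progenitor surface protein, had the largest difference of the 4 on its brighter probe over all arrays, and the widest spread within PyMT tumours. With the mean of its probes (0.49) and among the last 5 arrays deposited (0.39) its difference was smaller than that of Tesc (0.59 and 0.42). Its brighter probe, ILMN_1248172, read 9.48, 9.23, 9.49, 9.00 and 9.18 in PyMT/SIRT6 replicates 1 to 5, against a lowest value of 7.93, a median of 8.52 and a highest of 8.91 in the PyMT arrays. PyMT replicates 4 (8.91) and 5 (8.83) came close to the PyMT/SIRT6 arrays, and the gap between the genotypes was 0.09. The means were 9.28 ± 0.21 (SD, n = 5) in PyMT/SIRT6 and 8.50 ± 0.38 (SD, n = 6) in PyMT, a log2 difference of 0.78 ± 0.17 (SE) or 1.72-fold. The second probe, ILMN_1259777, differed less: it read 7.80, 7.87, 7.94, 7.91 and 7.98 in PyMT/SIRT6 replicates 1 to 5, against a lowest value of 7.47, a median of 7.73 and a highest of 7.93 in PyMT arrays, a log2 difference of 0.19 ± 0.07 (SE, fit over all probes). On that probe the genotypes overlapped, since PyMT replicates 4 (7.93) and 6 (7.84) lay above the lowest PyMT/SIRT6 array (7.80). The brighter probe is annotated to a cDNA record and the second probe to a RefSeq transcript of Plet1. RefSeq places a noncoding gene, Plet1os, across Plet1, and which transcript each probe reads was not tested.

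Msc, the E-box repressor, was dim, with geometric mean intensities of 222.5 in PyMT/SIRT6 and 177.5 in PyMT tumours where the median probe reads about 157.5. Its probe, ILMN_2769777, gave 7.66, 7.68, 7.94, 7.98 and 7.73 in PyMT/SIRT6 replicates 1 to 5, against a lowest value of 7.36, a median of 7.47 and a highest of 7.56 in PyMT arrays. The genotypes were separated by a gap of 0.10, and PyMT/SIRT6 replicates 3 and 4 were the highest. The means were 7.80 ± 0.15 (SD, n = 5) in PyMT/SIRT6 and 7.47 ± 0.07 (SD, n = 6) in PyMT, a log2 difference of 0.33 ± 0.07 (SE) or 1.25-fold. Gm9947, a noncoding gene that overlaps Msc in RefSeq, differed by 0.01 and ran from 7.18 to 7.34 in PyMT/SIRT6 and from 7.14 to 7.35 in PyMT arrays.

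C1qtnf3, the secreted C1q-domain protein, is read by 3 probes, and their differences followed their brightness. The brightest, ILMN_2863849, read 8.11, 8.17, 8.17, 8.32 and 8.09 in PyMT/SIRT6 replicates 1 to 5, against a lowest value of 7.58, a median of 7.75 and a highest of 8.01 in PyMT arrays. PyMT/SIRT6 arrays were tightly grouped, and PyMT replicate 6 came within 0.08 of the lowest of them. The means were 8.17 ± 0.09 (SD, n = 5) in PyMT/SIRT6 and 7.76 ± 0.17 (SD, n = 6) in PyMT, a log2 difference of 0.41 ± 0.08 (SE) or 1.33-fold. ILMN_2593034 averaged 7.88 ± 0.14 in PyMT/SIRT6 and 7.63 ± 0.16 in PyMT, a difference of 0.25 ± 0.08 (SE), and its genotypes overlapped because PyMT/SIRT6 replicate 2 read 7.64 where PyMT replicates 3 and 6 read 7.79 and 7.85. The third probe, ILMN_2760318, lay near the median of the array, at 7.33 ± 0.02 in PyMT/SIRT6 and 7.24 ± 0.05 in PyMT, with a difference of 0.09 ± 0.03 (SE) and PyMT replicate 3 (7.31) above PyMT/SIRT6 replicate 1 (7.30).

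**Figure D1:**
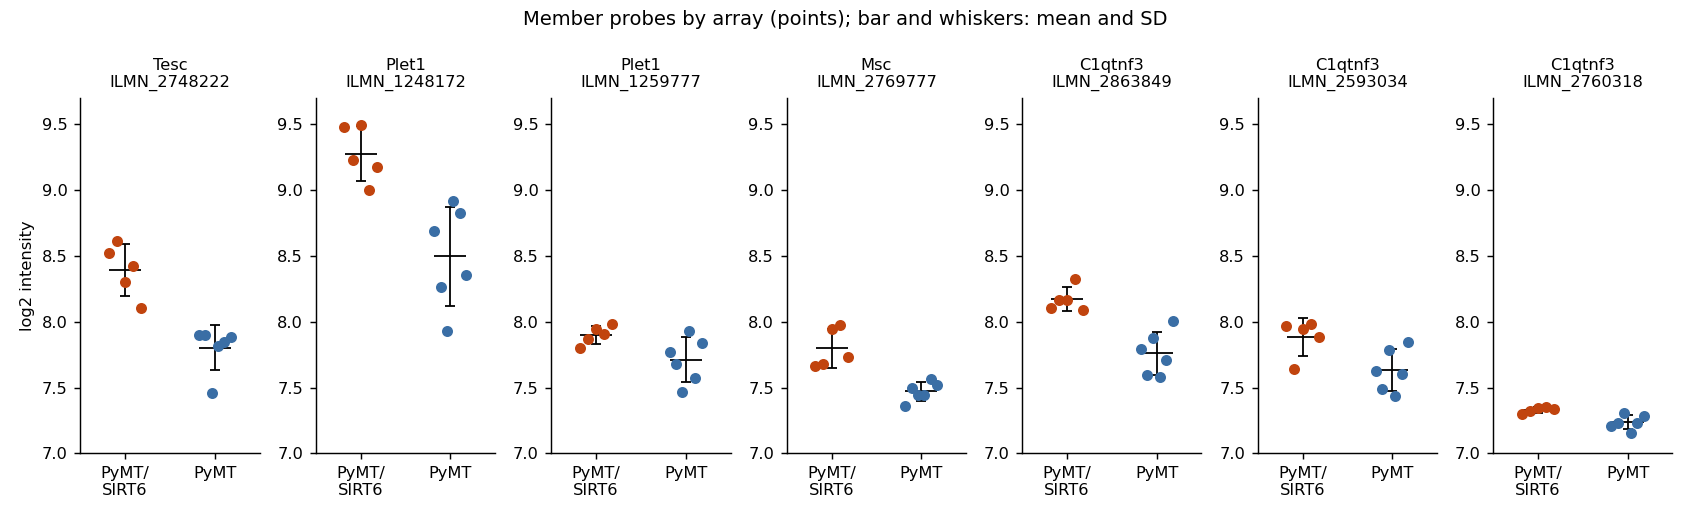
Log2 intensity (vertical axis) of the 7 probes of Tesc, Plet1, Msc and C1qtnf3 in PyMT/SIRT6 (orange, n = 5) and PyMT (blue, n = 6) arrays; points are arrays, bars the mean and whiskers the SD. The genotypes do not overlap on the brightest probe of each gene and overlap on the dimmer probes of Plet1 and C1qtnf3.

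The rule and its margin differed between probes of the same gene. All 7 member probes had all 5 PyMT/SIRT6 arrays above the PyMT mean, a property that chose the genes and that 5.78% of all probes and 4.75% of tested features shared, and nothing is read from that count. The lowest PyMT/SIRT6 array lay 0.51 above the PyMT mean for the brighter Plet1 probe, 0.33 for the brightest C1qtnf3 probe, 0.30 for Tesc and 0.19 for Msc. For the second Plet1 probe the margin was 0.09, for the third C1qtnf3 probe 0.06 and for ILMN_2593034 of C1qtnf3 0.01, the value just inside the rule, and no member probe fell outside it. Genotypes did not overlap on 4 of the 7 probes, where 0.232% of all probes and 0.292% of tested features had that property with PyMT/SIRT6 higher. That count comes from the contrast that chose the genes, and nothing is read from it. One probe per gene entered the limma fit over 14726 features, and those 4 all passed the filter on dim features. By size of difference they ranked 41st (Plet1), 71st (Tesc), 153rd (C1qtnf3) and 245th (Msc) among the tested features. With background subtracted by normexp the log2 differences were 1.01 for Tesc, 1.05 for Plet1, 0.73 for Msc and 0.75 for C1qtnf3.

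Agreement between probes was measured within the genotypes, as deviations of each array from its genotype mean, which leaves out the contrast that chose the genes. For C1qtnf3 the 3 probes moved together across the 11 arrays: r was 0.75 between ILMN_2863849 and ILMN_2593034 (rho = 0.71, exact permutation within genotypes p = 0.0148 for r and 0.0317 for rho, adjusted over 7 probe pairs 0.0371 and 0.0527), and 0.98 among the 6 PyMT arrays (exact permutation p = 0.00139). The third probe correlated with them at 0.75 and 0.69 (exact permutation adjusted p = 0.0399 each; by rank 0.70 and 0.72, adjusted p = 0.0527 each), although it lay below the limit for tested features. Without the 2 arrays farthest from the median the 3 values were 0.55, 0.62 and 0.79. For Plet1 the pair of probes gave r = 0.43 (rho = 0.25, exact permutation p = 0.309 and 0.515), and r turned to −0.43 without the 2 farthest arrays, so the relation rested on those arrays. PyMT replicate 3 was the lowest array on both Plet1 probes and PyMT replicate 4 the highest PyMT array on both, while the PyMT/SIRT6 arrays followed no common order, with replicate 1 next to highest on the brighter probe and lowest on the other.

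**Figure D2:**
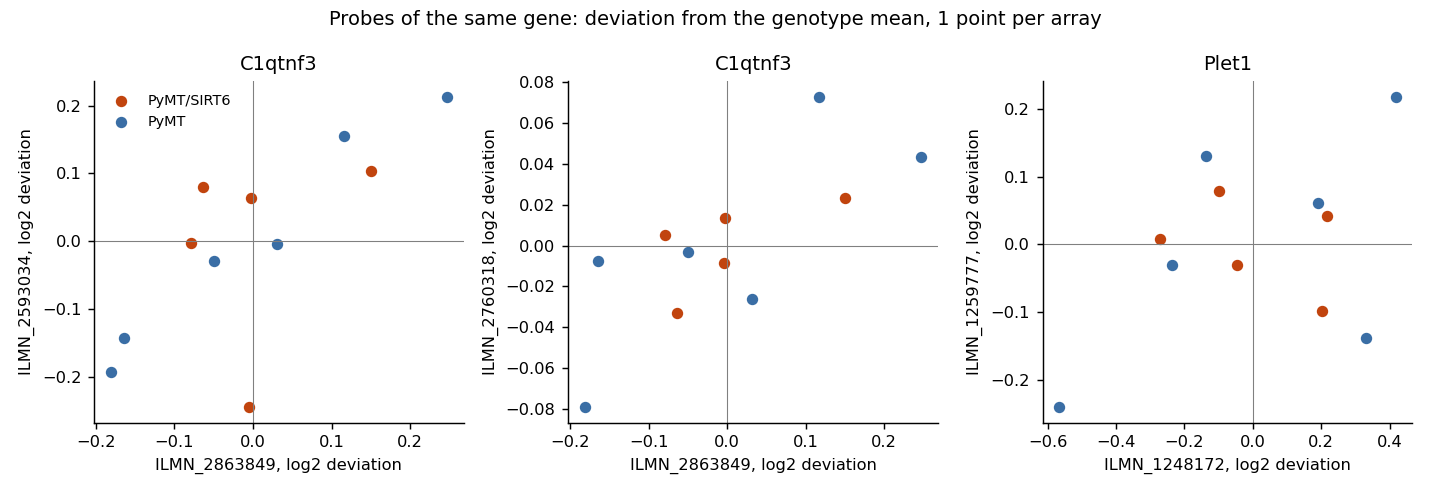
Deviation of each array from its genotype mean (log2) on probes of the same gene, PyMT/SIRT6 in orange and PyMT in blue, 1 point per array. The C1qtnf3 probes rise together (r = 0.75 in both panels), and the Plet1 probes give r = 0.43 with PyMT replicate 3 at the lower left.

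No pair of members passed a test of moving together within the genotypes. Over the 6 pairs of members r ran from −0.50 for Plet1 with C1qtnf3 to 0.41 for Tesc with Plet1 (11 arrays, exact permutation within genotypes, p = 0.204 and 0.217, adjusted over the pairs 0.566 each; rho = −0.49 and 0.12, adjusted p = 0.54 and 0.773). Tesc with Plet1 turned to −0.31 without the 2 arrays farthest from the median of Tesc. Among PyMT arrays alone Tesc with Plet1 gave 0.61 and Plet1 with C1qtnf3 −0.47 (exact permutation p = 0.188 and 0.335, n = 6). Msc with C1qtnf3 gave 0.31, and 0.02 without its 2 farthest arrays. Tesc with Msc gave −0.13 (rho = −0.44), and −0.73 without the 2 arrays farthest from the median of Tesc. Tesc with C1qtnf3 and Plet1 with Msc gave −0.08 and −0.11.

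Whether a member tracks the level of Sirt6 was asked within PyMT tumours, since Sirt6 separates the genotypes, and then over all arrays as deviations from the genotype mean. Among the 6 PyMT arrays, with the brightest Sirt6 probe, r was 0.68 for C1qtnf3 (rho = 0.71, exact permutation p = 0.135 and 0.136), −0.48 for Msc (rho = −0.37, p = 0.354 and 0.497 by exact permutation), −0.16 for Plet1 (rho = −0.26, exact permutation p = 0.732 and 0.658) and −0.06 for Tesc (rho = 0.03, exact permutation p = 0.886 and 1). After adjustment over the 4 relations 0 passed, the lowest adjusted p being 0.539 for r and 0.544 for rho. Without PyMT replicates 2 and 5, the arrays farthest from the median of Sirt6, r was 0.74 for C1qtnf3, 0.44 for Msc, −0.06 for Plet1 and 0.59 for Tesc, so the sign turned for Msc and Tesc. Among PyMT/SIRT6 arrays Sirt6 was 8.49, 8.64, 8.31, 8.19 and 8.23 in replicates 1 to 5. Replicates 1 and 2, the highest in Sirt6, were also the highest in Tesc (8.52 and 8.61) and the lowest in Msc (7.66 and 7.68). Over all 11 arrays, as deviations from the genotype mean, r with Sirt6 was 0.46 for Tesc (rho = 0.53) and −0.66 for Msc (rho = −0.59), with exact permutation p = 0.208 and 0.108 for r, adjusted over the 4 relations 0.416 each, and adjusted p = 0.315 each for rho. It was 0.08 for Plet1 and 0.15 for C1qtnf3 (rho = 0.09 and 0.21, exact permutation adjusted p = 0.771 each for r, 0.785 and 0.693 for rho). Without PyMT/SIRT6 replicates 2 and 4, the arrays farthest from the median deviation of Sirt6, r was 0.37 for Tesc, 0.02 for Plet1, −0.45 for Msc and 0.50 for C1qtnf3.

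**Figure D3:**
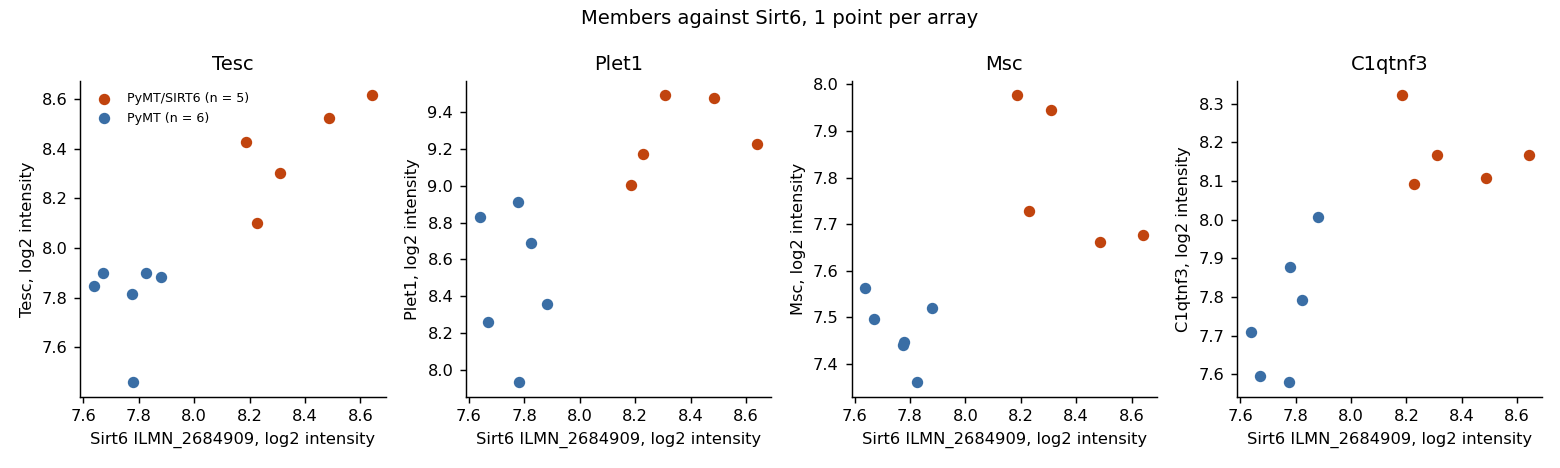
Log2 intensity of each member (vertical axes, brightest probe) against that of Sirt6 (horizontal axes) for PyMT/SIRT6 (orange, n = 5) and PyMT (blue, n = 6) arrays. The genotypes form separate clusters in every panel, and within PyMT arrays r runs from −0.48 for Msc to 0.68 for C1qtnf3.

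The relation to epithelial and stromal content was examined with marker lists summarised as the mean log2 intensity of their tested genes. The lists were chosen with earlier results of these data known. Over 4 members and 10 lists, 40 relations of within-genotype deviations were computed, 2 had an unadjusted p under 0.05 and 0 passed after adjustment by exact permutation within genotypes, and 0 passed by rank. Tesc had its largest r with luminal progenitor markers (9 tested of a list of 10 that holds Elf5, Kit and Aldh1a3), at 0.72 over 11 arrays (rho = 0.66, exact permutation p = 0.0116 and 0.0305, adjusted 0.355 and 0.594) and 0.76 among PyMT arrays (exact permutation p = 0.0903, n = 6). PyMT replicate 3 was the lowest array in Tesc (7.46), in luminal progenitor markers (9.65) and in luminal epithelium markers (9.55), and without it the relation of Tesc to the progenitor list was 0.46. With the progenitor list as a covariate the Tesc difference was 0.49 ± 0.09 (SE), against 0.59 without it, and the Plet1 difference was 0.67. With luminal epithelium markers (15 tested of 17, keratins and claudins among the list) r was 0.59 for Tesc and 0.52 for Plet1 (exact permutation adjusted p = 0.528 and 0.67). For Tesc it dropped to 0.16 without PyMT replicates 2 and 3, and for Plet1 it was 0.55 without the same arrays. With the luminal epithelium list as a covariate the differences were 0.64 for Tesc and 0.85 for Plet1. The part of luminal content in the Tesc and Plet1 differences was not tested.

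C1qtnf3 had its largest values of r, both negative, with the basal and luminal epithelium lists, though neither passed. With basal and myoepithelial markers (12 tested of 14, a list with Krt5 and Krt14) r was −0.79 over 11 arrays (rho = −0.61, exact permutation p = 0.0177 and 0.0833, adjusted 0.355 and 0.594), −0.90 among PyMT arrays (exact permutation p = 0.0222, n = 6) and −0.48 without the 2 farthest arrays. With luminal epithelium markers it was −0.60 (exact permutation adjusted p = 0.528). The basal list was lower in PyMT/SIRT6 arrays, though not after adjustment (exact permutation p = 0.0173, adjusted over 11 lists 0.191). Its mean was 9.01 ± 0.12 (SD, n = 5) in PyMT/SIRT6 and 9.34 ± 0.24 (SD, n = 6) in PyMT arrays. Its range was 8.89 to 9.18 in PyMT/SIRT6 and 9.02 to 9.64 in PyMT. Of its 12 genes 0 were higher in PyMT/SIRT6, against 46.9% of all tested features. Genes of 1 list can vary together, so the 12 are not independent. Other lists were one-sided too, with 7 of 7 T and NK cell genes and 12 of 13 macrophage genes higher. The milk and secretory list was not, with 6 of 12 higher. With the basal list as a covariate, chosen after seeing the data, the C1qtnf3 difference was 0.23 ± 0.09 (SE), against 0.41 without it. The basal list was itself lower in PyMT/SIRT6 arrays, so basal content and genotype cannot be told apart in that fit. The part of basal content in the C1qtnf3 difference was not tested. With fibroblast and matrix markers (16 tested of 20, a list led by collagens) r was −0.16 for C1qtnf3 (exact permutation adjusted p = 0.821). It was −0.68 among PyMT arrays (exact permutation p = 0.135, n = 6) and −0.64 without PyMT/SIRT6 replicates 1 and 4. With the fibroblast and matrix list as a covariate the C1qtnf3 difference was 0.42.

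Msc had its largest r with fibroblast and matrix markers, followed by T and NK cell markers. With the first r was 0.67 (rho = 0.65, exact permutation p = 0.0618 and 0.0724, adjusted 0.528 and 0.594), and 0.42 among PyMT arrays (exact permutation p = 0.418, n = 6) and also without PyMT/SIRT6 replicates 1 and 4. The list ran from 8.38 to 9.18 in PyMT/SIRT6 and from 8.44 to 9.01 in PyMT arrays, and the Msc difference with it as a covariate was 0.30 ± 0.06 (SE). With T and NK cell markers (7 tested of 12) r was 0.52 (exact permutation adjusted p = 0.67), the list ran from 7.47 to 7.84 in PyMT/SIRT6 and from 7.34 to 7.63 in PyMT, and the Msc difference with that covariate was 0.25. Plet1 reached −0.54 with B and plasma cell markers and −0.46 with endothelial markers (exact permutation adjusted p = 0.528 each), the first list resting on 2 tested genes. The part of B and plasma cells and of endothelium in the Plet1 difference was not tested. Nor was the part of fibroblasts or of T and NK cells in the Msc difference.

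**Figure D4:**
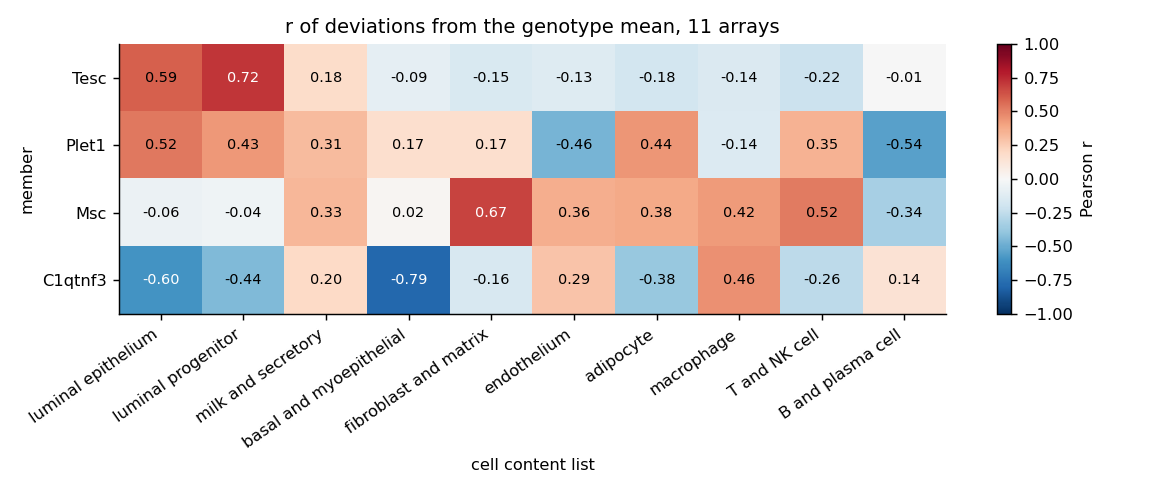
Pearson r between each member (rows) and each marker list mean (columns), as deviations from the genotype mean over 11 arrays; red is positive and blue negative. The largest values are −0.79 for C1qtnf3 with basal markers and 0.72 for Tesc with luminal progenitor markers, and 0 of the 40 relations passed after adjustment.

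Skeletal muscle markers set 4 arrays apart, so no correlation with muscle content is given. The gap was 0.35 of the range of that list. Some lists given with r had larger gaps, such as basal markers (0.42) and B and plasma cell markers (0.47), so their r can rest on few arrays. With the muscle list as a covariate the log2 differences were 0.60 for Tesc, 0.77 for Plet1, 0.31 for Msc and 0.42 for C1qtnf3. Without the 4 arrays high in muscle markers, which left PyMT/SIRT6 replicates 2 and 3 and 5 PyMT arrays, they were 0.67 ± 0.15, 0.93 ± 0.24, 0.36 ± 0.08 and 0.40 ± 0.13 (SE). Since this contrast chose the genes, its sign was largely set by the rule. The part of muscle content in the differences was not tested. The Plet1 difference was also read by order of deposit, in sets chosen after seeing the data that hold few arrays per genotype. Among the first 6 arrays deposited its difference was 1.11 ± 0.21 and among the last 5 it was 0.39 ± 0.19 (SE), while Tesc gave 0.73 and 0.42, Msc 0.33 and 0.35, and C1qtnf3 0.39 and 0.44. With order of deposit as a block over all arrays the Plet1 difference was 0.79, against 0.78 without it. Whether the difference depends on order of deposit was not tested. The labels do not say what the order of deposit stands for.

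The tested genes nearest to the members lay near 0. Only tested genes are counted and named here, and genes that were not tested can lie closer to a member. By RefSeq gene order (GRCm38.p6), the 3 nearest tested genes on each side of the 4 members made 24 neighbours. Of these 10 were above 0, against 46.9% of all tested features. In limma 0 passed at an adjusted p of 0.05, where 0.0136% of tested features were called higher and 0% lower. Of the 24 neighbours 0 also had an unadjusted limma p under 0.05, where 2.04% of tested features were higher and 2.39% lower. With shares that small, nothing is read from this count. The differences of the neighbours ran from −0.22 to 0.15, with a median of −0.02, against −0.01 over all tested features. Tesc (chromosome 5) lies between Fbxo21 and Fbxw8, genes of F-box proteins, at −0.08 ± 0.14 and −0.04 ± 0.14 (SE). Plet1 (chromosome 9) lies between Ncam1, a neural cell adhesion molecule, at −0.09 ± 0.06, and Pts, an enzyme of tetrahydrobiopterin synthesis, at 0.15 ± 0.21. Msc (chromosome 1) lies between Tram1, a translocation protein of the endoplasmic reticulum, at −0.03 ± 0.12, and Terf1, a telomere protein, at 0.02 ± 0.08. C1qtnf3 (chromosome 15) lies between Rai14 at 0.00 ± 0.08 and Adamts12, a secreted metalloprotease, at 0.01 ± 0.08. The genotypes overlapped on all 24 neighbours, where only 0.292% of tested features were higher without overlap. Of the 6 neighbours of Sirt6 (chromosome 10), 4 had genotypes that did not overlap, from Ankrd24 at 0.34 ± 0.05 to Tle6 at 1.32 ± 0.11 (SE), where 0.292% of tested features were higher without overlap. Tle6 and Tle5 passed in limma (adjusted p = 0.000342 and 0.0269), whereas Sirt6 itself did not (limma adjusted p = 0.0574).

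**Figure D5:**
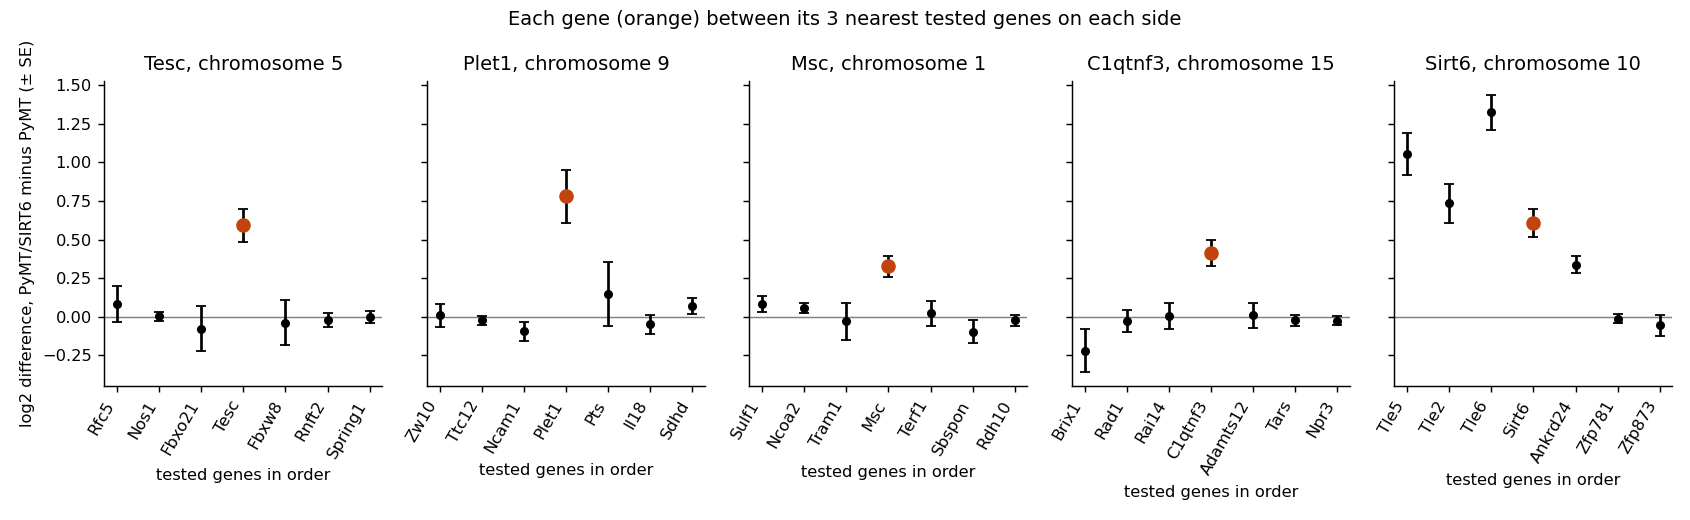
Log2 difference, PyMT/SIRT6 minus PyMT, with its SE (vertical axis) for Tesc, Plet1, Msc, C1qtnf3 and Sirt6 (orange) and the 3 nearest tested genes on each side (black) in gene order. The 24 neighbours of the members lie between −0.22 and 0.15, and 4 of the 6 neighbours of Sirt6 lie at 0.34 or above.

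Relatives of each member by family or function were counted from fixed lists, also chosen with earlier results known, in the same limma fit. Over all tested features 46.9% were above 0, and at an unadjusted limma p under 0.05 2.04% were higher and 2.39% lower. Of the C1q and TNF related family with its receptors, 13 of 18 genes were tested, 7 above and 6 below 0 with a median difference of 0.01, and 0 passed in either direction (0 also at an unadjusted p under 0.05). The largest difference there was −0.34 ± 0.20 (SE) for C1qtnf1, a secreted paralog that ran from 9.35 to 10.20 in PyMT/SIRT6 and from 9.53 to 10.58 in PyMT arrays, followed by the complement genes C1qa at 0.20 and C1qb at 0.17. Of the basic helix-loop-helix partners of Msc and the Id inhibitors, 11 of 20 were tested, 5 above and 6 below 0, median −0.03, with 0 past the adjusted threshold and 1 lower at an unadjusted p under 0.05, the dim muscle factor gene Myog (−0.08 ± 0.04). Id2, an inhibitor of E proteins, was at 0.46 ± 0.35 and the mesenchymal factor Twist1 at −0.07 ± 0.04.

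For Tesc, calcineurin subunits, its homologous proteins and sodium-proton exchangers gave 9 tested genes of 14, 7 above and 2 below 0, median 0.05, and 0 passed, 0 also at an unadjusted p under 0.05. The calcineurin subunits Ppp3ca and Ppp3r1 were at 0.12 ± 0.17 and −0.10 ± 0.10, and the calcineurin regulator Rcan1 at 0.10 ± 0.11. For Plet1, surface and stem markers of epithelia gave 10 tested genes of 14, 4 above and 6 below 0, median −0.09, with 0 past the adjusted threshold and 1 lower at an unadjusted p under 0.05, the keratin gene Krt15 (−0.18 ± 0.05 SE). The probe of Krt15, which also stands in the basal list, was dim, at 7.27 to 7.46 in PyMT/SIRT6 and 7.47 to 7.67 in PyMT arrays (limma adjusted p = 0.983). Ly6d, a surface marker of luminal progenitors, was at 0.32 ± 0.21, with 9.34 to 9.77 in PyMT/SIRT6 and 8.50 to 9.73 in PyMT arrays, and the hyaluronan receptor gene Cd44 at −0.13 ± 0.18. Over all tested features 2.04% were higher and 2.39% lower at an unadjusted p under 0.05.

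The genes whose arrays varied most like a member within the genotypes were named by Pearson r of deviations over 11 arrays, 5 per member, and 5 of the 20 are marked dim, with a PyMT mean under 7.5. For Tesc these were Sec24b, a coat protein of secretory vesicles (r = 0.96), Phf12 (0.90), Fbxl6 (0.90), Sbf1 (0.90) and Plekhg3 (0.89). For Plet1 they were Tmem120b (0.89), the lysosomal chloride transporter gene Clcn7 (0.89), the exocyst subunit gene Exoc5 (0.88, dim), Irs3 (0.88, dim) and the tight junction gene Tjp3 (0.84). For Msc they were Phf20l1 (0.91), the chaperone gene Hspa5 (0.90, dim), the lamin B receptor gene Lbr (0.88), the collagen crosslinking enzyme gene Lox (0.87) and Fbxo45 (0.84). For C1qtnf3 they were Alox12b (0.95, dim), Fxyd5 (0.90), Tmem39a (0.89), Rpl36al (0.88) and the Langerhans cell lectin gene Cd207 (0.87, dim). These values are not high for this table: the highest r of any feature was 0.96 for Tesc, 0.90 for Plet1, 0.91 for Msc and 0.95 for C1qtnf3, against a median of 0.95 over all tested features. None of these 20 genes passed the comparison of the genotypes in limma (0 at an adjusted p under 0.05, 1 at an unadjusted p under 0.05, Tmem39a at 0.22). At that unadjusted limit 2.04% of all tested features were higher and 2.39% lower. The differences of the 20 genes ran from −0.15 to 0.26 with 9 of 20 above 0, against 46.9% of all tested features.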

How the data were processed

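Total RNA of 11 mammary tumours was read on Illumina WG-6 v2.0 mouse arrays, per the labels' protocols. The authors deposited 1 linear intensity per probe and array (116.7 to 40180.3); the labels state neither background treatment nor normalization, and sorted values agreed between arrays within 1.08%. Groups came from the genotype label and replicate numbers follow deposit order. Of 45281 probes 34885 had 1 gene symbol, 18 several and 10378 none; 34807 matched the RefSeq gene table (GRCm38.p6), used for names and gene order only. Intensities were put on the log2 scale and the brightest probe was kept per gene. Each probe without a single gene symbol was kept as its own feature (29453 features in all). The lower 50% by mean was left out (14726 tested, 11368 of them with a symbol, limit 7.31). Shares of all tested features include those without a symbol. The genotype fit used limma 3.58.1 (R 4.3.3), lmFit and eBayes with trend, Benjamini-Hochberg over all tested features, threshold 0.05. Single values were tested by exact permutation over 462 splits, relations by all 86400 permutations within genotypes or 720 within PyMT. Scripts were tested on simulated data. The members and lists were chosen with earlier results of these data known. Named genes are all member probes, Sirt6, the 5 features most like each member, up to 3 genes per family list and defining markers; neighbours and overlapping genes were added after seeing the data. Alternatives were other probe summaries, background, scaling, covariates, weights, deposit order as a block and arrays left out. The number of arrays limits the precision.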

Additional observations from a re-analysis of the deposited data

Results flagged for a closer look

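In 4 of 42 groups of arrays tested, 1 array stood far from the others of its genotype, where chance marks about 1 in 20 groups. Tesc was low in PyMT replicate 3, at 7.46 with the next PyMT array at 7.82; without that array the Tesc difference was 0.52. The macrophage list was high in PyMT replicate 6 (8.87, next 8.64). The B and plasma cell list, of 2 tested genes, was high in PyMT/SIRT6 replicate 2 (7.85, next 7.36). The skeletal muscle list was high in PyMT replicate 5 (11.86, next 8.49).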

How the results depend on the processing

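Over 28 alternatives the differences ran from 0.42 to 1.01 for Tesc, 0.39 to 1.11 for Plet1, 0.25 to 0.73 for Msc and 0.23 to 0.75 for C1qtnf3. All lay above 0, but the same contrast chose the genes. Their sign was thus largely set by the rule, and nothing is read from it. Leaving out 1 array gave 0.52 to 0.67, 0.67 to 0.86, 0.28 to 0.36 and 0.37 to 0.46 for the 4 genes in that order. Background subtraction by normexp moved Tesc to 1.01, Msc to 0.73 and C1qtnf3 to 0.75 beyond the SD between arrays, and Plet1 to 1.05 within it. The mean of its probes gave 0.25 for C1qtnf3 and 0.49 for Plet1. Chosen after seeing the data were the basal covariate (C1qtnf3 at 0.23), the first 6 and last 5 deposits alone (Plet1 at 1.11 and 0.39), covariates for T and NK cells, luminal progenitors and milk genes, no filter for the 4 differences, and the fit without muscle-rich arrays. The 700 tested features with all PyMT/SIRT6 arrays above the PyMT mean became 1750 with no filter, 320 in the upper 25% by mean and 2615 over every probe, and 660 to 2000 leaving out 1 array, the highest without PyMT/SIRT6 replicate 2. The 43 with PyMT/SIRT6 above all PyMT arrays became 72, 17 and 105 in those settings, and 50 to 140 leaving out 1 array; the count was 67, 140 and 68 without PyMT/SIRT6 replicates 1, 2 and 4, and 78, 79 and 69 without PyMT replicates 3, 5 and 6. A smaller set of arrays makes non-overlap easier by construction. Relations past the threshold stayed at 0 of 40 for cell content and 0 of 4 for Sirt6 in every alternative run, including the mean of 3 Sirt6 probes and all 11 arrays as deviations from the genotype mean, both added after seeing the data. The Sirt6 run without the 2 farthest PyMT arrays left too few arrays for a single relation to pass after adjustment, so nothing is read from its 0. Leaving out 1 PyMT array gave r with Sirt6 from −0.28 to 0.18 for Tesc, −0.37 to 0.18 for Plet1, −0.95 to −0.12 for Msc and 0.42 to 0.86 for C1qtnf3. The cause was not tested. No paired analysis was possible because replicate numbers follow deposit order and pair no samples.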
